A study of Mus musculus with 8 samples.

Results

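The cells described here are the unstimulated CD8+ naive T cells of a single-cell RNA sequencing study of mouse splenic T cells that lack SDHA, the catalytic subunit of mitochondrial complex II. They were taken by the deposited annotation, as every cell whose class was CD8 and whose subset was Naive 1, 2, 3, or 4. This gave 1470 cells of 12846 in the series, and of 6014 in the 4 unstimulated libraries. No cell of the stimulated libraries carried the label. The 2 WT libraries held 407 and 503 of the cells, and the 2 SDHA-KO libraries held 256 and 304.

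The SDHA-KO mice were Sdha fl/fl with the CD4-Cre transgene, and the WT mice were C57BL/6 (B6); mice with the transgene and an intact Sdha gene were not analysed here. The transgene is active from the CD4+CD8+ stage of the thymus, so that it acts in the ancestors of CD8+ as well as CD4+ T cells. T cells of adult spleens were purified magnetically, not stimulated with antibody (0 h of stimulation), and freed of dead cells. The single-cell methods of the paper do not say whether or how long the unstimulated cells were kept in culture. The labels number 2 libraries per genotype as replicates without saying whether each came from its own mouse, so the p-values measure the spread between these libraries, which may be technical.

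Naive CD8+ T cells circulate between blood and lymphoid organs before they meet antigen. They home to lymph nodes through CCR7, and they persist on contact with self peptide-MHC and on IL-7, which they bind through the receptor chain encoded by Il7r. Complex II links the tricarboxylic acid (TCA) cycle to the respiratory chain, since it oxidizes succinate to fumarate and passes the electrons to ubiquinone. Its 4 subunits, SDHA to SDHD, are all encoded in the nucleus.

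The label was set by clustering on expression and by the ratio of Cd4 to Cd8a, so the levels of these genes restate it and are given as description. From 98.0% to 99.2% of the cells of each library had a UMI (unique molecular identifier, 1 counted transcript) of Cd8a or Cd8b1. The 1470 cells carried 14123561 UMIs, between 2740837 and 4746979 per library, with medians of 8502 and 9283 UMIs per cell in WT and 10271 and 10152 in SDHA-KO. One cell shared its barcode with a cell of another unstimulated library. In 13 cells Cd4 UMIs outnumbered Cd8a UMIs. Of the listed markers of other lineages, some were absent and some were not. H2-Aa, S100a8, S100a9, Ncr1, Klra8, Zbtb16, Ppbp, and Pf4 had 0 UMIs. The summed level of the 8 listed NK and NKT genes lay between 1.75 and 2.81 CPM (UMIs scaled to a common total of 1000000), and that of 7 red cell and platelet genes between 0 and 2.14. The 10 listed B cell genes summed to between 129 and 185 CPM, most of it Ighm, the heavy chain of IgM, at 101 to 163 CPM, and the 9 myeloid genes to between 126 and 161, most of it Ctss (cathepsin S), at 70.0 to 107 CPM. Xist stood between 393 and 464 CPM in the 4 libraries.

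CD8+ naive cells made up 29.2% and 33.4% of the WT libraries and 17.8% and 18.2% of the SDHA-KO libraries. The means were 31.3% ± 2.96 and 18.0% ± 0.310 (SD, n = 2 each), and the groups did not overlap. With 2 libraries against 2, an exact two-sided permutation test cannot give a p below 0.333, which is the value reached. Of the CD8+ cells alone, the label took 88.1% and 90.3% in WT and 78.8% and 85.6% in SDHA-KO. These are shares of the cells captured, not numbers of cells per spleen.

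Against CD4+ naive cells of the same libraries, CD8+ naive cells were set apart by Cd8a, Cd8b1, and genes of the cytotoxic lineage. Because the subsets were made by clustering on expression, these differences are described without a test. Nkg7, a granule membrane protein, stood at 456 and 432 CPM in the WT libraries and 413 and 359 in SDHA-KO CD8+ naive cells, and at 2.2 to 5.4 CPM in CD4+ naive cells, under a scaling shared by both subsets. Itgae, the integrin chain CD103, stood at 36.9 to 79.8 against 0.7 to 1.9. Plac8, Ly6c2, Ccl5, and Adgrg5 were also among the 10 genes with the largest ratios. In the other direction, Cd4, Ly6c1, Cd40lg (CD40 ligand), and Zbtb7b (ThPOK, the factor that specifies CD4+ T cells) led. Zbtb7b stood at 0 to 1.1 CPM in CD8+ naive cells and at 28.1 to 35.6 in CD4+ naive cells.

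Cells labelled CD8+ central memory (Tcm) differed from the naive cells mainly in natural killer receptor and effector genes. Klrc1, the NKG2A receptor chain, stood at 0 to 0.2 CPM in the naive cells and at 31.2 to 95.8 in Tcm cells. Ccl5, a chemokine of memory and effector cells, stood at 37.2 to 162 CPM against 3278 to 5439. The naive cells held more Ccr9, a chemokine receptor of thymic and gut homing, at 71.4 to 87.6 CPM against 0 to 11.3 in Tcm cells. Igfbp4, an IGF-binding protein of naive cells, stood at 88.4 to 200 CPM against 1.6 to 30.6.

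The 4 deposited subclusters held 509, 395, 294, and 272 cells. Genes that led the subclusters included Mov10 and Pde11a in Naive 1, Egr1, Id3, and Cd160 in Naive 2, Pim1, Nt5e, and Il7r in Naive 3, and Ly6a and Izumo1r in Naive 4. Naive 2 took 23.1% and 23.9% of the WT and 32.8% and 31.9% of the SDHA-KO cells, and Naive 4 took 22.6% and 20.3% against 18.0% and 10.5%. Naive 1 and Naive 3 overlapped between the genotypes. Since genes that differ between the genotypes also define the clusters, these shares are given as description.

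Between the genotypes, 477 of 9501 genes tested were called in the CD8+ naive cells at an adjusted p under 0.05 (edgeR quasi-likelihood test on UMIs summed per library, Benjamini-Hochberg adjustment), or 5.02% of those tested. Of these, 128 were higher in SDHA-KO (1.35%) and 349 were lower (3.67%). Each count of called genes in a list below is to be read beside the 5.02% of all genes tested. At least 2-fold differences were seen in 42 of the higher and 102 of the lower genes. The groups did not overlap in 475 of the called genes, as in 46.9% of all genes tested. The count was 309 without WT replicate 1 and 243 without WT replicate 2. The split by direction rested on the scaling. The main fit used TMM, which centres the bulk of genes. Without it, on UMI totals, 344 genes were called higher and 215 lower, and the median over all genes was a log2 fold change of 0.12 in place of 0.00. Scaled to nuclear genes other than those of ribosomal proteins, 234 were higher and 255 lower. On the mean of log values per cell, 430 were higher and 185 lower. Small differences therefore carry a direction only relative to the scaling used, and all values below use TMM unless said otherwise.

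**Figure D1:**
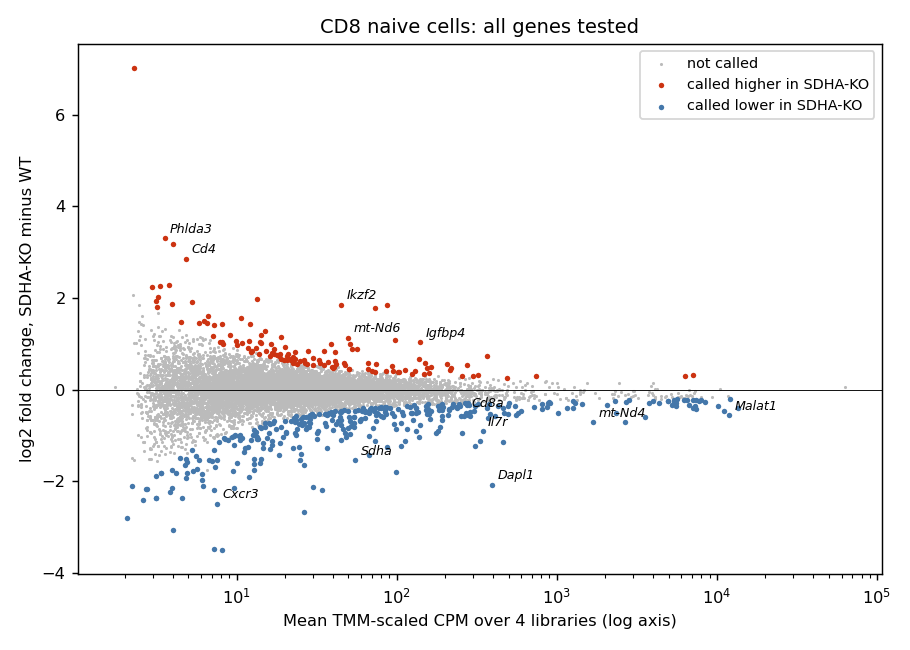
Each point is 1 of the 9501 genes tested in CD8+ naive cells, with its mean level over the 4 libraries on a log axis (TMM-scaled CPM) and its log2 fold change, SDHA-KO minus WT. The 128 genes called higher are red and the 349 called lower are blue; Dapl1 and Il7r stand low among genes of their level, and Ikzf2 stands high.

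Sdha was reduced in every SDHA-KO library. It stood at 78.9 and 85.5 CPM in the WT libraries and at 27.8 and 28.7 in SDHA-KO, from 265, 391, 79, and 94 UMIs. The log2 fold change was -1.54 (SE 0.134, adjusted p = 2.73e-09), a level of 0.343 of WT. A Sdha UMI was found in 49.4% ± 3.51 of WT and 24.7% ± 0.974 of SDHA-KO cells (SD, n = 2), and in 31.6% and 13.8% when each cell was thinned to 5000 UMIs. These reads come from the 3′ end of the transcript and do not show whether the remaining transcripts held the floxed exon. The mRNAs of the other complex II subunits stayed close to WT. Sdhb stood at 65.2 and 69.6 CPM against 70.3 and 67.3 (log2 fold change 0.03, adjusted p = 0.947). Of 7 genes for the other subunits and for assembly factors, Sdhaf4, which helps SDHA join SDHB, was called, at 32.7 and 29.3 CPM against 22.9 and 18.4 (log2 fold change -0.59 with an SE of 0.173, adjusted p = 0.0421). The Sdhaf4 call was lost with DESeq2, with limma, without composition scaling, and without either WT library or SDHA-KO replicate 2.

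Sdha lies on chromosome 13 (GRCm38, 74322255 to 74350240). None of the 9 tested genes on the list of its near neighbours was called by edgeR, DESeq2, or limma, and none had an unadjusted p under 0.05. In a window of 5 Mb to either side, Slc6a19, a neutral amino acid transporter gene 642510 bp away, was called. It stood at 33.3 and 36.1 CPM in the WT libraries and at 9.14 and 19.6 in SDHA-KO (log2 fold change -1.25, adjusted p = 0.000182).

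Of the 4 genes that mark the label, Dapl1 fell furthest. Dapl1, a death-associated protein-like gene of quiescent T cells, stood at 660 and 610 CPM in the WT libraries and at 159 and 142 in SDHA-KO (log2 fold change -2.08 with an SE of 0.0892, adjusted p = 3.09e-16). Its UMIs were found in 68.7% ± 1.54 of WT and 27.0% ± 0.494 of SDHA-KO cells. The lower level was seen in each subcluster, with 461 to 664 CPM in the 8 WT and 83.4 to 210.5 in the 8 SDHA-KO subcluster sums. Cd8a stood at 311 and 325 CPM against 230 and 219 (log2 fold change -0.50). Cd8a also entered the ratio that set the label, so these levels are given as description, without a test. Cd8b1, the other coreceptor chain, stood at 964 and 967 CPM against 778 and 801 (log2 fold change -0.29, adjusted p = 0.012). The Cd8b1 call was lost without composition scaling and without either WT library. Ccr7 stood at 197 and 186 CPM against 174 and 154 and did not pass (log2 fold change -0.22, adjusted p = 0.215).

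**Figure D2:**
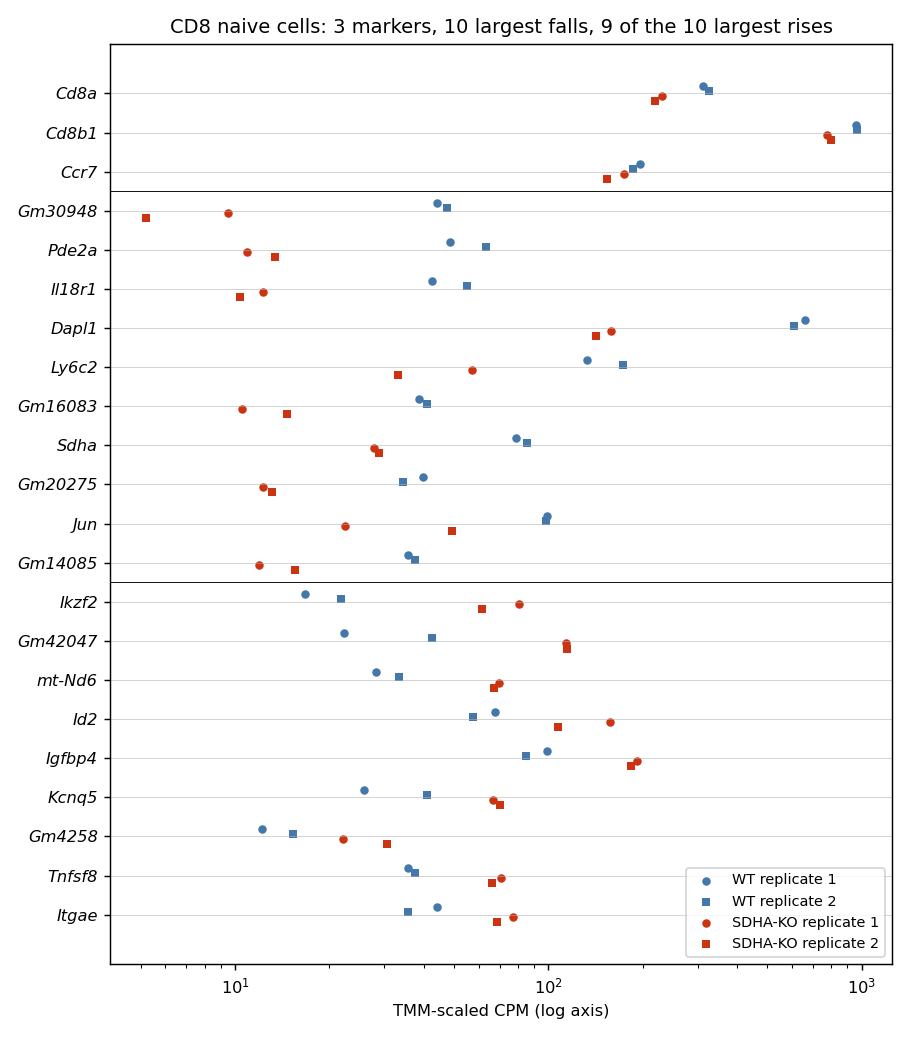
Levels of 3 markers, the 10 largest falls, and 9 of the 10 largest rises of called genes whose mean reached 20 CPM, in each of the 2 WT (blue) and 2 SDHA-KO (red) libraries of CD8+ naive cells, as TMM-scaled CPM on a log axis. Circles are replicate 1 and squares replicate 2; the colours separate in every row, and the SDHA-KO libraries of Jun lie apart, at 22.5 and 49.2 CPM.

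Genes that describe the naive state fell more often than they rose. The study annotated its clusters from genes that include Ccr7, Il7r, Tcf7, Cd44, Itga4, and Foxp3, in both genotypes together. Of 28 listed genes of naive cells and quiescence, all tested, 11 were lower and 2 higher in SDHA-KO, with a median log2 fold change of -0.19 beside 0.00 over all genes. Il7r stood at 468 and 430 CPM in the WT libraries and at 233 and 246 in SDHA-KO (log2 fold change -0.90 with an SE of 0.0849, adjusted p = 1.23e-08). Lef1, a partner of TCF1, fell by 0.39 on the log2 scale, and the antiproliferative genes Btg1 and Btg2 fell by 0.39 and 0.50. Tcf7 itself stood at 270 and 276 CPM against 244 and 266 (adjusted p = 0.629). Foxo1, which drives Il7r, stood at 150 and 152 CPM against 130 and 143 (adjusted p = 0.46).

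The 2 naive-state genes that rose were Igfbp4 and Zfp36l2. Igfbp4 stood at 98.8 and 84.7 CPM in the WT libraries and at 192 and 184 in SDHA-KO (log2 fold change 1.04 with an SE of 0.102, adjusted p = 2.83e-08), and Zfp36l2, an RNA-decay factor of quiescent lymphocytes, rose by 0.48. The list counted 3 higher and 8 lower without composition scaling, 2 and 6 without WT replicate 1, and 1 and 4 without WT replicate 2.

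The sequences upstream of 3 of these genes are shown because Dapl1 and Il7r carry the strongest falls of naive-cell genes and Igfbp4 the strongest rise. Each run holds the 250 bases before the start of 1 RefSeq transcript of the gene (GRCm38.p6), written 5′ to 3′ on the strand of the gene. They lie at chr2:59484403-59484652 on the plus strand for Dapl1, at chr15:9529877-9530126 on the minus strand for Il7r, and at chr11:99040994-99041243 on the plus strand for Igfbp4. The start used is the first base of the gene for Dapl1. For Il7r and Igfbp4 the gene's RefSeq span begins further upstream, so that 65 bases of the Il7r window, its match included, and all 250 of the Igfbp4 window lie within the span. Capitals mark matches on either strand to GGAAG (the ETS core), TGTTTAC (FOXO), CTTTGA (TCF/LEF), or CACCC (KLF).
Dapl1: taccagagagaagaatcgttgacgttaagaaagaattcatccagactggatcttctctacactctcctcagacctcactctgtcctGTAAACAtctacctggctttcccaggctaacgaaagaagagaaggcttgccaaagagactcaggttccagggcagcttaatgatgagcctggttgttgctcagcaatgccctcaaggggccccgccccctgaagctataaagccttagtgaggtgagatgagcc
Il7r: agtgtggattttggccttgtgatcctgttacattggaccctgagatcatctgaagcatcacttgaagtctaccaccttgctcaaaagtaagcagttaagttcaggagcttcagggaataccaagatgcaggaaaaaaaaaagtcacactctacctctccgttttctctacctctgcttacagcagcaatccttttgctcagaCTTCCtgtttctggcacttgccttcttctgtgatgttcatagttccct
Igfbp4: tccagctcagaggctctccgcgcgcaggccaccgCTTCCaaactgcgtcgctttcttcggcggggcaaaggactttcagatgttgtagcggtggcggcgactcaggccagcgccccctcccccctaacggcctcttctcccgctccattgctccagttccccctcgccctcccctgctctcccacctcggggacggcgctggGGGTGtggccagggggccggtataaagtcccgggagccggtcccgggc
Dapl1 held 1 FOXO match on the minus strand, 164 to 158 bases before the start. Il7r held 1 ETS match, and Igfbp4 held 1 ETS and 1 KLF match. Over 22862 mouse genes with 1 such window each, 63.4% of such windows held an ETS match, 50.5% a KLF, 14.3% a TCF/LEF, and 3.1% a FOXO match. Of 199 called lower genes with a window, 74.9% held an ETS, 60.3% a KLF, 17.6% a TCF/LEF, and 4.02% (8 genes) a FOXO match. Of 63 called higher genes, 65.1%, 52.4%, 9.52%, and 0 did, in the same order. Of all 5979 such genes tested, 70.4%, 54.4%, 10.7%, and 2.19% did. These shares were not tested, so no enrichment of any motif is claimed. A match of letters is no evidence of binding, and distant enhancers were not searched.

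Further receptors fell beside Il7r. Of 24 tested genes for cytokine receptors and their feedback, 4 were lower and 0 higher in the edgeR fit, while 5 had an unadjusted p under 0.05, 1 of them upward. DESeq2 and limma each called 2, as did the fits without either WT library. Il18r1, the ligand-binding chain of the IL-18 receptor, stood at 42.6 and 55.1 CPM in the WT libraries and at 12.3 and 10.4 in SDHA-KO (log2 fold change -2.13 with an SE of 0.187, adjusted p = 3.61e-09). Il6ra and Il27ra fell by 0.40 and 0.39 on the log2 scale. The shared gamma chain Il2rg, which pairs with Il7r, had a log2 fold change of 0.02 (adjusted p = 0.954).

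Several genes listed as marks of memory and virtual memory cells fell. Ly6c2, a gene of the Ly6C antigen with a near-identical copy, Ly6c1, that could share its UMIs, stood at 133 and 174 CPM in the WT libraries and at 57.0 and 33.0 in SDHA-KO (log2 fold change -1.79 with an SE of 0.155, adjusted p = 2.71e-09). Cxcr3, a chemokine receptor of memory and effector cells, stood at 9.53 and 16 CPM against 2.11 and 2.45 (log2 fold change -2.50 with an SE of 0.379, adjusted p = 5.18e-05). Klrd1, the CD94 chain, stood at 234 and 231 CPM against 129 and 110 (log2 fold change -0.96, adjusted p = 5.85e-08). Ccl5 and Prf1 (perforin) fell by 1.26 and 1.17. In all, 5 of 21 tested genes of memory and virtual memory cells were lower and 1 was higher, and their median log2 fold change was 0.03. The one that rose was Id2, an inhibitor of E proteins, at 67.6 and 57.5 CPM against 158 and 108 (log2 fold change 1.09, adjusted p = 2.28e-06). Eomes, which drives the virtual memory state, stood at 12.2 and 11.2 CPM against 10.6 and 5.2 (adjusted p = 0.311), and Cd44 had a log2 fold change of 0.00.

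Among the strongest rises were transcription factors and surface genes. Ikzf2, which encodes Helios, stood at 16.7 and 21.9 CPM in the WT libraries and at 80.5 and 61.5 in SDHA-KO (log2 fold change 1.85 with an SE of 0.158, adjusted p = 2.63e-09). Helios is also made by regulatory T cells, and Foxp3 was too low to be tested. Itgae rose from 44.1 and 35.7 CPM to 77.0 and 68.8 (log2 fold change 0.88, adjusted p = 4.46e-05). Tnfsf8, the CD30 ligand, stood at 35.7 and 37.6 CPM against 70.7 and 66.4 (log2 fold change 0.90). Tox, a factor of T cell selection and exhaustion, was called by edgeR with a log2 fold change of 0.43 (adjusted p = 0.00326). It was the 1 called gene of 13 tested regulators of coreceptor choice (7.69%, beside 5.02% of all genes tested). Removing either WT library ended that call. Runx3, which silences Cd4 in CD8+ cells, had a log2 fold change of 0.14 (adjusted p = 0.51).

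The largest falls also took in Pde2a, a cyclic nucleotide phosphodiesterase, at 48.5 and 63.2 CPM in the WT libraries and 10.9 and 13.5 in SDHA-KO (log2 fold change -2.20, adjusted p = 1.22e-09). Gm30948, which lies in the immunoglobulin heavy chain region, fell by 2.67, and Gm16083, Gm20275, and Gm14085 fell by 1.64, 1.53, and 1.40. What these predicted genes do is not known from the files. Epsti1 and Dnajc15 are neighbours on chromosome 14, and both fell. Epsti1 stood at 622 and 656 CPM against 282 and 294 (log2 fold change -1.15, adjusted p = 6.43e-11), and Dnajc15, a co-chaperone of the mitochondrial inner membrane, at 436 and 467 against 211 and 205 (log2 fold change -1.12, adjusted p = 3.36e-10). In all, 70 of the 444 called genes with a position stood next to another called gene in the order of tested genes. They formed 32 runs, of which 27 moved in 1 direction. Of all 9258 genes with a position 444 were called, and 349 of the 477 calls were lower. How many such neighbours and same-direction runs these rates alone would give was not computed, so no clustering is claimed.

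The 13 genes of the mitochondrial genome moved in both directions. Their UMIs made up 4.25% and 4.11% of all UMIs in WT and 4.11% and 4.03% in SDHA-KO, as shares of raw totals. On the TMM scale used for the fold changes, they summed to 44379 and 42659 CPM in WT. In SDHA-KO this sum was lower, at 39610 and 38481 CPM. Of the 13, 8 were lower and 3 higher, and the groups did not overlap in all 13, beside 46.9% of all genes. The complex I genes mt-Nd2 and mt-Nd4 fell furthest. mt-Nd2 stood at 3360.1 and 3293 CPM in the WT libraries and at 2077 and 1996 in SDHA-KO (log2 fold change -0.71 with an SE of 0.0643, adjusted p = 6.15e-09). mt-Nd4 stood at 2117 and 2039 CPM against 1330 and 1217 (log2 fold change -0.71, adjusted p = 2.57e-08). mt-Cytb, of complex III, fell by 0.61, mt-Nd4l by 0.58, mt-Nd5 by 0.51, and mt-Nd3 by 0.50, while mt-Atp6 and mt-Co3 fell by 0.27 and 0.25.

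The complex IV genes mt-Co1 and mt-Co2 rose. mt-Co1 stood at 5747 and 5580 CPM against 7112 and 6856 (log2 fold change 0.30 with an SE of 0.0599, adjusted p = 0.00145), and mt-Co2 at 6542 and 6143 against 7895 and 7862 (log2 fold change 0.31, adjusted p = 0.00103). mt-Nd6, the one protein gene on the light strand of the mitochondrial genome, rose most, from 28.3 and 33.5 CPM to 69.6 and 67.0 (log2 fold change 1.13 with an SE of 0.134, adjusted p = 1.07e-06). The counts were 3 higher and 6 lower without composition scaling. They fell to 1 higher and 6 lower without WT replicate 1 or without WT replicate 2.

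**Figure D3:**
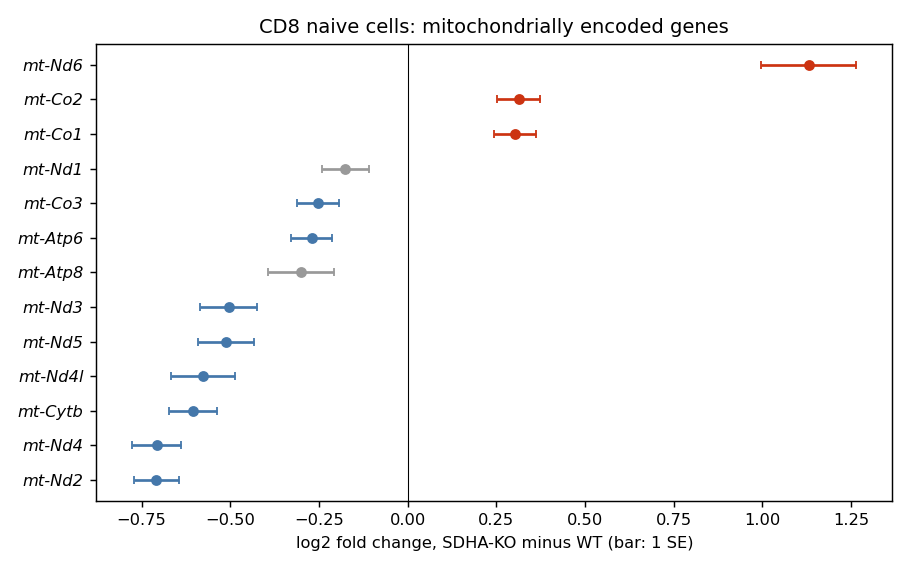
Log2 fold change, SDHA-KO minus WT, of the 13 mitochondrially encoded protein genes in CD8+ naive cells, with bars of 1 SE from the edgeR fit. Blue points were called lower, red points higher, and grey points were not called; mt-Nd2 and mt-Nd4 sit at -0.71 and mt-Nd6 at 1.13.

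Nuclear genes of energy metabolism moved little. Of 36 nuclear complex I genes, 0 were called by edgeR and by DESeq2 and 3 by limma on log values, and 1 had an unadjusted p under 0.05. Their log2 fold changes lay between -0.25 and 0.19. Of 39 genes of complexes III to V, 0 were called by any of the 3 tools, with 5 at an unadjusted p under 0.05 and all values between -0.29 and 0.14, although 5 were called lower without SDHA-KO replicate 1. Of 19 other TCA cycle genes, 0 were called by any tool, with 1 at an unadjusted p under 0.05. Among 18 glycolytic genes, 2 were higher. Eno1 (enolase) stood at 143 and 130 CPM in the WT libraries and at 189 and 196 in SDHA-KO (log2 fold change 0.50, adjusted p = 0.000982), and Tpi1 (triose phosphate isomerase) at 23.5 and 17.1 against 35.5 and 36.1 (log2 fold change 0.85, adjusted p = 0.00178). Both calls were lost without WT replicate 2, and 4 genes were called higher without SDHA-KO replicate 2. Gapdh had a log2 fold change of 0.04.

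Succinate can stabilize HIF-1, and mitochondrial faults can raise the integrated stress response, so both lists were examined. Of 16 tested HIF-1 targets, 0 were called by edgeR and DESeq2 and 1 by limma, with 3 at an unadjusted p under 0.05, all higher. Ndrg1, the target with the largest rise, stood at 2.08 and 5.03 CPM against 7.39 and 9.18 (log2 fold change 1.14, adjusted p = 0.0731). Of 14 tested genes of the integrated stress response, 0 were called by any of the 3 tools. There, 4 had an unadjusted p under 0.05, all higher, and the median log2 fold change was 0.33. Atf4 stood at 38.4 and 39.2 CPM against 46.8 and 44.7 (adjusted p = 0.394). Prdx5, a mitochondrial peroxiredoxin, was the 1 called gene of 22 antioxidant genes (4.55%, beside 5.02% of all genes tested), with a log2 fold change of -0.40. This call was lost with DESeq2, with limma, without composition scaling, and without either WT library or SDHA-KO replicate 2.

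**Figure D4:**
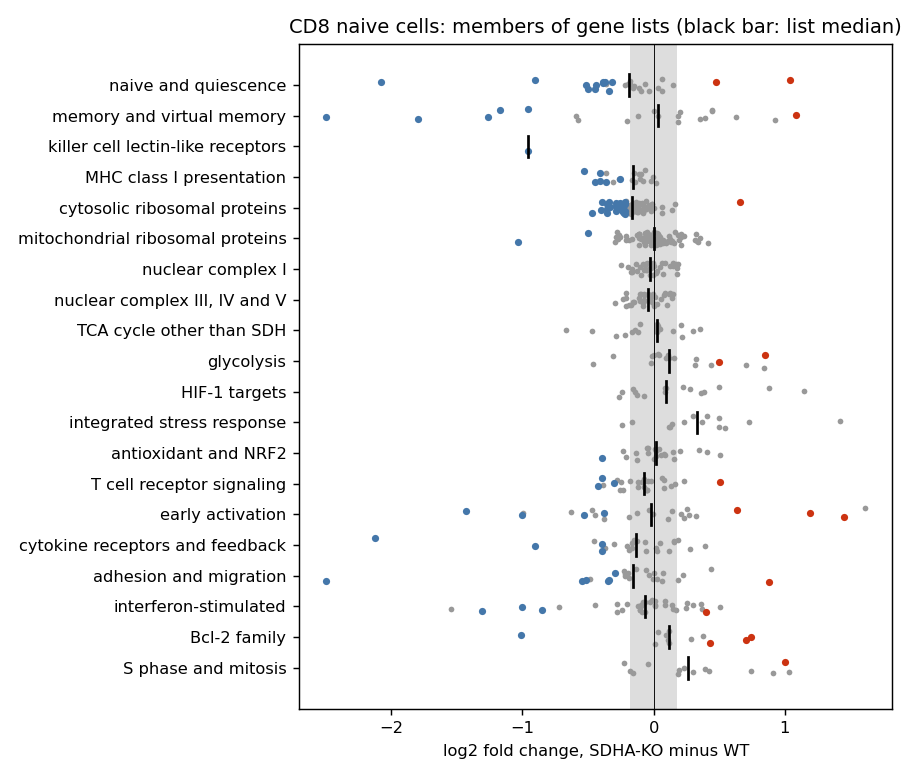
Log2 fold changes, SDHA-KO minus WT, of the tested members of 20 gene lists in CD8+ naive cells. Each point is 1 gene, blue when called lower, red when called higher, and grey otherwise; black bars are list medians, and the grey band spans the lower to the upper quartile of all genes tested, from -0.18 to 0.18. Nuclear complex I genes crowd around 0, whereas naive-cell and memory genes reach far to the left.

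Cytosolic ribosomal protein genes took 38.9% and 38.9% of UMIs in WT and 37.9% and 35.8% in SDHA-KO. Of 80 tested, 27 were lower and 1 was higher, with a median log2 fold change of -0.16. Their count was sensitive to the scaling and to single libraries, with 2 higher and 8 lower without composition scaling, 6 lower without WT replicate 1, 7 lower without WT replicate 2, 66 lower without SDHA-KO replicate 1, and 46 lower without SDHA-KO replicate 2. The 1 that rose was Rps27l, which is also a p53 target, at 112 and 99.98 CPM against 187 and 149 (log2 fold change 0.66, adjusted p = 0.000154). Of 77 mitochondrial ribosomal protein genes, 2 were lower (2.60%, beside 5.02% of all genes tested). Mrpl52 stood at 183 and 188 CPM against 96.0 and 85.6 (log2 fold change -1.04, adjusted p = 2.58e-08).

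MHC class I genes fell together in part. Of 20 genes of class I presentation, 6 were lower and 0 higher, and no member with an unadjusted p under 0.05 was higher. H2-Q7, a Qa-2 gene, stood at 579.6 and 599 CPM in the WT libraries and 461 and 356 in SDHA-KO (log2 fold change -0.53 with an SE of 0.0912, adjusted p = 0.000249), and H2-K1 and H2-D1 both fell by 0.41. B2m fell by 0.26, Psmb9, a subunit of the immunoproteasome, by 0.45, and H2-T23 by 0.36. The MHC genes share sequence, so UMIs may be split among them. Without composition scaling 4 were lower, without WT replicate 2 there were 3, and DESeq2 and limma each called 2.

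Interferon-stimulated genes showed no common direction. Of 37 tested, 3 were lower and 1 was higher, or 3 and 0 without either WT library. Slfn5, a restriction factor, stood at 24.1 and 22.3 CPM against 9.14 and 9.48 (log2 fold change -1.31, adjusted p = 0.000155), and Ifi214 fell by 0.85 and Phf11b by 1.00. Bst2 (tetherin) rose by 0.40, and Isg15 stood at 34.5 and 28.4 CPM against 34.5 and 28.7.

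Genes induced on activation moved in both directions. Of 24 tested, 3 were higher and 4 lower, and the counts were unstable. They were 0 and 1 by DESeq2, 3 and 2 without composition scaling, 2 and 2 without WT replicate 1, and 1 and 7 without SDHA-KO replicate 2. Egr1 stood at 9.23 and 8.09 CPM in the WT libraries and at 19.3 and 19.9 in SDHA-KO (log2 fold change 1.19 with an SE of 0.228, adjusted p = 0.00104), and its family member Egr3 and the feedback inhibitor Tnfaip3 rose by 1.45 and 0.63. Jun, a part of the AP-1 factor, stood at 98.8 and 98.7 CPM against 22.5 and 49.2 (log2 fold change -1.43 with an SE of 0.172, adjusted p = 1.21e-06). Jund, Junb, and Fosb, which also form AP-1, fell by 0.53, 0.38, and 1.00. Nr4a1, an early reporter of T cell receptor signal, stood at 0.893 and 1.53 CPM against 3.87 and 3.98 (adjusted p = 0.0833), and Cd69 had a log2 fold change of -0.38 (adjusted p = 0.068). Jun and Fosb are also induced by handling of cells. Of the 10 tested genes of that dissociation list, 2 were higher (Hsph1 and Hspd1) and 2 lower (Jun and Malat1), or 0 and 2 without WT replicate 1 and 0 and 1 by DESeq2. Malat1, a nuclear RNA, stood at 14757 and 13622 CPM against 9258 and 10029. The part of handling in these values was not tested.

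Of 27 genes of the T cell receptor and its signal, 3 were lower and 1 higher. The direction rested on the scaling, since 1 was lower and 3 were higher without composition scaling and by limma. No gene was called without WT replicate 2, 1 lower and 1 higher were called without WT replicate 1, 4 lower and 3 higher without SDHA-KO replicate 1, and 6 lower and 1 higher without SDHA-KO replicate 2. In the fit with composition scaling, Cd3d fell by 0.42, Cd2 by 0.39, and Trbc2 by 0.30 on the log2 scale, and Ptpn6, the phosphatase SHP-1 that restrains the receptor, rose by 0.51 (adjusted p = 0.00412). Lck and Zap70 had log2 fold changes of -0.02 and -0.05. Among 24 genes of adhesion and migration, 6 were lower and Itgae was higher. Selplg (the P-selectin ligand), Icam2, and Coro1a fell by 0.35, 0.55, and 0.30. This count was 1 lower by DESeq2 and without WT replicate 1, 2 lower without WT replicate 2, and 2 lower without composition scaling. In the Ly6 family, Ly6e fell by 0.56 beside Ly6c2.

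Of 12 tested genes of the Bcl-2 family, which set the threshold for apoptosis, 3 were higher and 1 lower, with a median log2 fold change of 0.12. DESeq2 called 1 higher and 0 lower. Without WT replicate 2 the counts were 1 and 1, and without WT replicate 1 or SDHA-KO replicate 1 they were 2 and 0. The survival gene Bcl2 stood at 260.5 and 291 CPM in the WT libraries and at 497 and 427 in SDHA-KO (log2 fold change 0.74 with an SE of 0.0886, adjusted p = 1.21e-06). The death genes Bax and Bbc3 (PUMA) rose by 0.43 and 0.70. Bcl2a1b, a survival gene with near-identical copies, so that its UMIs are uncertain, fell by 1.01. Mcl1 stood at 151 and 131 CPM against 158 and 145 (adjusted p = 0.652). Of 14 tested genes of S phase and mitosis, Stmn1 was the 1 called (7.14%, beside 5.02% of all genes tested). Its log2 fold change was 1.00 (adjusted p = 0.00636 by edgeR), a call lost with DESeq2 and without WT replicate 2. Mki67 was too low to be tested.

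Markers of other lineages moved in both directions. Of 3 tested genes each, the CD4 lineage list had 2 higher and 0 lower, the regulatory T list 1 higher and 0 lower, and the B cell list 1 higher and 2 lower. The 1 tested gamma-delta gene was higher, and of 2 tested myeloid genes 1 was lower. Trdc, the constant region of the delta chain of the T cell receptor, stood at 10.4 and 12.9 CPM in the WT libraries and at 27.1 and 25.1 in SDHA-KO (log2 fold change 1.14, adjusted p = 0.000313). A Trdc UMI was found in 2.79% ± 0.572 of WT and 6.38% ± 0.741 of SDHA-KO CD8+ naive cells (SD, n = 2), or 2.10% and 4.33% of cells thinned to 5000 UMIs. In CD4+ naive cells, which should lack it, the shares were 3.49% and 4.51%, or 2.20% and 2.93% thinned, with median depths of 7102 to 8565 UMIs per cell. The WT share was thus no higher than that of CD4+ naive cells. The UMIs per cell with a Trdc UMI did differ. Their means were 2.69 and 4.92 in the WT libraries of CD8+ naive cells, and 1.62 and 1.48 in those of CD4+ naive cells. In SDHA-KO they were 5.13 and 3.90, against 2.25 and 1.73. Which cells these are was not tested. In SDHA-KO cells labelled CD8+ Tcm, 67.9% had a Trdc UMI, against 11% in WT. The summed level of the 8 listed gamma-delta genes in the count matrix was 15.2 and 14.2 CPM in the WT libraries and 47.1 and 33.0 in SDHA-KO CD8+ naive cells, with Trdv4 at 0 UMIs.

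Cd4 stood at 0.595 and 1.53 CPM in the WT libraries and at 13.4 and 3.98 in SDHA-KO (log2 fold change 2.86 with an SE of 0.555). Cd4 also entered the ratio that set the label, so these levels are given as description. The edgeR call of Cd4 did not survive the removal of SDHA-KO replicate 1. A Cd4 UMI was found in 0.643% ± 0.215 of WT and 3.1% ± 1.13 of SDHA-KO cells, or 0.429% and 1.46% after thinning. In the CD4+ naive cells of the same libraries Cd4 itself was higher in SDHA-KO, at 94.8% of cells against 65.4%. Igkc, an immunoglobulin chain, stood at 0 and 1.31 CPM against 11.6 and 3.06, and this call was lost in the same way and with DESeq2. The other tested B cell genes went the other way. Ighm stood at 146 and 163 CPM against 101 and 115 (log2 fold change -0.52, adjusted p = 0.00155), which did not pass once WT replicate 2 was removed. Cd79b, a chain of the B cell receptor complex, stood at 21.4 and 18.8 CPM against 12.0 and 11.9 (log2 fold change -0.74, adjusted p = 0.0373), and its call was lost when any 1 library was removed, with DESeq2, and without composition scaling. The summed B cell list stood at 168 and 185 CPM against 129 and 133. Of the myeloid genes, Ctss stood at 89.0 and 107 CPM against 70.0 and 74.3 (log2 fold change -0.45, adjusted p = 0.0188), which did not pass with DESeq2 or limma, on UMI totals, or once WT replicate 2 was removed. The part of other cells or free RNA in these values was not tested. Among strict cells, those with a Cd8 UMI but neither Cd4 nor Trdc UMIs, which were from 90.2% to 96.0% per library, 538 genes were called, 158 higher and 380 lower. Of the 477 calls, 446 were among these.

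The same contrast called 386 of 10803 genes in CD4+ naive cells (3.57%) and 31 of 6255 in CD8+ Tcm cells (0.496%). The difference between the SDHA-KO effects was tested with an interaction term that kept the library as a block. Between CD8+ and CD4+ naive cells it was called for 51 of 10718 genes (0.476%), 31 of them toward a lower effect in CD8+ cells. The count was 8 with a replicate block in place of the library block, and 52 with the strict cells of both subsets. It also changed when 1 library was left out. Sdha itself fell in both subsets, with log2 fold changes of -1.54 in CD8+ and -1.18 in CD4+ naive cells (difference -0.36, SE 0.144, adjusted p = 0.463). Dapl1 fell by 2.08 and 1.97 (difference -0.11, adjusted p = 0.786).

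Il7r fell further in CD8+ naive cells. In CD4+ naive cells it stood at 461 and 453 CPM in the WT libraries and at 355 and 353 in SDHA-KO, and the difference of the log2 fold changes was -0.53 (SE 0.0705, adjusted p = 2.22e-05). Il18r1 showed the same order (difference -1.02, adjusted p = 0.00862). Ms4a4c, a tetraspanning membrane protein gene of lymphocytes, had a log2 fold change of -1.12 in CD8+ and 0.53 in CD4+ naive cells (difference -1.62, SE 0.150, adjusted p = 4.24e-08). Socs1, a feedback inhibitor of cytokine signals, stood at 33.3 and 27.1 CPM in the WT libraries and at 36.9 and 17.4 in SDHA-KO CD8+ naive cells, and at 22.9 and 19.7 against 59.3 and 34.1 in CD4+ naive cells (difference -1.29, adjusted p = 4.56e-05). Klrd1 went the other way, since it fell by 0.96 in CD8+ and by 2.64 in CD4+ naive cells (difference 1.68, SE 0.173, adjusted p = 2.81e-07). Stmn1 rose by 1.00 in CD8+ cells and had a log2 fold change of 0.01 in CD4+ cells (difference 1.00, adjusted p = 0.0186).

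Against CD8+ Tcm cells the effect differed for 67 of 9209 genes (0.728%), of which 51 were toward a lower effect in naive cells. The count was 14 without WT replicate 2 and 31 with the strict cells, of which the SDHA-KO Tcm libraries had 10 and 11. Since most SDHA-KO cells labelled Tcm held a Trdc UMI, subset and genotype cannot be told apart there from the kind of T cell. Dapl1 in Tcm cells stood at 142 and 111 CPM in the WT libraries and at 119 and 146 in SDHA-KO (difference -2.12, SE 0.190, adjusted p = 8.52e-08). Sdha in Tcm cells stood at 85.7 and 62.0 CPM against 55.1 and 55.4, and its difference was -1.13 (adjusted p = 0.0438). Cxcr3 stood at 123 and 134 CPM against 108 and 102 in Tcm cells (difference -2.17, adjusted p = 0.00408). Bbc3 rose in naive cells and had a log2 fold change of -0.95 in Tcm cells (difference 1.66, adjusted p = 0.00886). The drug transporter genes Abcb1a and Abcb1b, adjacent paralogs that could share UMIs, moved apart, with log2 fold changes of -1.52 and 0.62 in naive cells and 0.65 and -1.31 in Tcm cells.

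**Figure D5:**
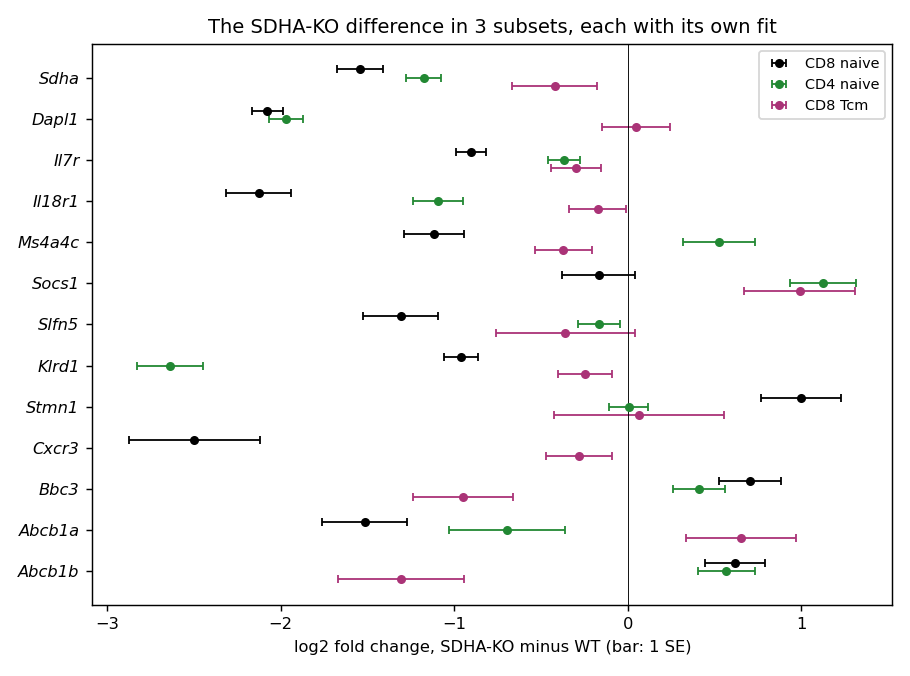
Log2 fold change, SDHA-KO minus WT, of 13 genes in CD8+ naive (black), CD4+ naive (green), and CD8+ Tcm (purple) cells, each from its own fit, with bars of 1 SE; genes not tested in a subset have no point. Dapl1 lies near -2 in both naive subsets and near 0 in Tcm cells, and Ms4a4c and Socs1 differ between the naive subsets.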

How the data were processed

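Of 8 single-cell RNA libraries of mouse splenic T cells, the 4 unstimulated ones were used, 2 WT and 2 SDHA-KO. Groups came from the sample titles, and cells were matched to libraries by the cell table. The authors processed 10x Genomics 3′ libraries with Cell Ranger (mm10 per the submitters' processing notes, versions not given in the sources used here), removed cells with very many detected genes and clusters without CD3 transcripts, and deposited UMI counts, not normalized, for each gene in each cell. The cell table holds the percent of mitochondrial UMIs and a log10 ratio of Cd4 to Cd8a, which the authors computed from these counts; all were checked against the matrix, with 0 cells differing. How doublets were treated beyond the limit on genes is not given in the sources used here, and no caller was run.

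UMIs of the cells of each subset were summed per library, since cells of 1 library are not replicates; the study's own contrasts were made over single cells. Genes passing filterByExpr (minimum count 10, minimum total 15) were scaled with TMM and tested with glmQLFit and glmQLFTest of edgeR 4.0.16, with 2 residual degrees of freedom. The fit moderates the variance of each gene with that of the other genes, with a median of 26.8 prior degrees of freedom. The p-values therefore rest largely on variance shared across genes. Each SE was derived from the log2 fold change and the F statistic. Adjusted p-values under 0.05 were called. The spread between replicates was 6.12%, and replicates of a group differed by more than sampling noise, since chi-square over its degrees of freedom was 1.51 in WT and 3.05 in SDHA-KO. Alternatives used DESeq2 1.42.0 and limma 3.58.1. The fits were tested on simulated data. Intervals of counts would cover counting error only.

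The subset and the 38 gene lists were chosen with earlier results of these data known. Genes were named by rule: the target, the label's markers and the study's subset genes, the 10 largest called differences in each direction with a mean of at least 20 CPM, the 2 largest rises and falls called in each list or, where none was called, its most abundant member, the 10 largest subset ratios in each direction, and the 5 largest interactions in each direction. Some genes that this rule names are not reported here, and other names were chosen after their values were seen. Positions and upstream sequences are from RefSeq (GRCm38.p6); 9258 of 9501 genes were placed by symbol.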

Additional observations from a re-analysis of the deposited data

Results flagged for a closer look

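Results were singled out where the SDHA-KO effect on CD8+ naive cells differed from that on another subset of the same libraries, by the test of the difference itself (edgeR quasi-likelihood interaction, adjusted p under 0.05). No group had enough libraries to look for a library far from the others.

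Against CD4+ naive cells 51 genes differed. Among those with a mean of at least 20 CPM, the effect was lower in CD8+ naive cells for Ms4a4c (-1.62 on the log2 scale), Socs1 (-1.29), B630019A10Rik (-1.16), Slfn5 (-1.13), and Il18r1 (-1.02). It was higher for Klrd1 (1.68), Actn2 (1.12), Stmn1 (1.00), Slbp (0.75), and Auts2 (0.70). Slbp, which binds histone mRNA, stood at 42.6 and 32.6 CPM in the WT libraries and at 39.4 and 45.6 in SDHA-KO CD8+ naive cells, and at 43.7 and 41.0 against 29.0 and 29.0 in CD4+ naive cells. For Actn2, an actinin, CD8+ naive cells stood at 58.3 and 44.4 CPM against 34.1 and 40.4, and CD4+ naive cells at 12.1 and 9.25 against 3.75 and 3.42.

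Against CD8+ Tcm cells 67 genes differed. The effect was lower in naive cells for Ifngas1 (-2.77), Gm20275 (-2.33), Cxcr3 (-2.17), Abcb1a (-2.15), and Dapl1 (-2.12), and higher for Gpat3 (2.84), Gm42047 (2.35), Abcb1b (1.91), Crybg1 (1.71), and Bbc3 (1.66). Ifngas1, a noncoding RNA beside Ifng, stood at 11.9 and 17.9 CPM in the WT libraries and at 2.11 and 0.612 in SDHA-KO naive cells, and at 162 and 165 against 128 and 77.3 in Tcm cells. Gpat3, an acyltransferase of lipid synthesis, stood at 7.44 and 3.72 CPM against 17.9 and 13.8 in naive cells, and at 54.5 and 34.2 against 16.2 and 20.2 in Tcm cells. A Trdc UMI was found in 67.9% of SDHA-KO and 11% of WT Tcm cells, and its part in these differences was not tested. The fit on strict cells, which also need a Cd8 UMI and no Cd4 UMI, called 31 genes. It kept 10 and 11 cells of the SDHA-KO Tcm libraries, so fewer cells and another choice of cells both enter that count.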

How the results depend on the processing

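The 477 genes called between SDHA-KO and WT were 160 by the DESeq2 Wald test and 188 in the most populous subcluster alone, and ranged from 243 to 660 when 1 library was left out, where the lone library is assumed to vary like the others. They were 559 without composition scaling, 619 without a filter on low counts, 374 with libraries thinned to the smallest sum, and 323 in 1 fit of 3 subsets. The 51 differences from CD4+ naive cells were 102 without the filter and ranged from 50 to 195 without 1 library. The 67 differences from CD8+ Tcm cells were 105 without the filter, 31 with the strict cells, and ranged from 14 to 80 without 1 library. Replicate numbers are shared by the genotypes, but same-numbered libraries did not deviate together (correlation 0.00708 over 4815 genes, 2 pairs, so no pairing is shown). A replicate block gave 624 genes between the genotypes, and 8 and 54 differences from CD4+ naive and Tcm cells when it took the place of the library block. The mean share of CD8+ naive cells, 31.3% in WT and 18.0% in SDHA-KO, was 89.2% and 82.2% of CD8+ cells, and 16.3% in SDHA-KO for strict cells. Thinning moved the Trdc share to 2.10% and 4.33% and the SDHA-KO Cd4 share to 1.46%. Of 122 named genes tested, 87 were called, 35 of them under every alternative. None of these 87 changed sign under the alternatives run. Gm42418 and Cmss1, which overlap ribosomal RNA sequence, were not called in the main fit, with log2 fold changes of 0.05 and 0.02. When 1 library was left out, these ranged from -0.15 to 0.23 and from -0.14 to 0.15. The lowest values, of opposite sign to the main fit, came without SDHA-KO replicate 2. AY036118, whose span on chromosome 17 overlaps that of Gm42418, was called lower by edgeR (log2 fold change -0.34, adjusted p = 0.00192). With 2 libraries per genotype, small differences of genes under 20 CPM are limited by counting, and 1 library can end a call.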

Other observations

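Further groups of genes were picked after their values were seen, so their counts are descriptions and carry no test of the group. The GIMAP genes, GTPases that keep naive lymphocytes alive, were lower in part. Of 8 tested, 5 were called lower and 0 higher in SDHA-KO CD8+ naive cells. Gimap6 stood at 438 and 466 CPM in the WT libraries and at 287 and 305 in SDHA-KO (log2 fold change -0.61, adjusted p = 8.5e-06 by edgeR), and Gimap5 had a log2 fold change of -0.35 (adjusted p = 0.0514). Of 17 genes of the HSP90 chaperone machinery, 7 were called higher and 0 lower. Hsp90ab1 stood at 669 and 672 CPM against 785 and 855 (log2 fold change 0.29), and Hsph1 at 11 and 16.2 against 21.5 and 25.7 (log2 fold change 0.77), while Hspa8 had a log2 fold change of -0.17 (adjusted p = 0.242).

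Of 20 tested p53 target genes, 6 were higher and 1 was lower. Phlda3, an inhibitor of AKT, stood at 0.298 and 0.875 CPM in the WT libraries and at 6.33 and 6.73 in SDHA-KO (log2 fold change 3.31 with an SE of 0.556, adjusted p = 0.000193). Aen and Polk rose by 0.78 and 0.84, beside Bax, Bbc3, and Rps27l, and Btg2 fell by 0.50. Mdm2 stood at 32.7 and 30.2 CPM against 32.4 and 33.6 (adjusted p = 0.855).

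Surface proteins used to tell recent thymic emigrants from older naive cells include CD24, CD55, Qa-2, and the IL-7 receptor. Of 10 such genes listed, 9 were tested, 4 were lower, and 1 was higher. Cd55, a complement regulator, stood at 56.3 and 47.7 CPM in the WT libraries and at 19.3 and 23.2 in SDHA-KO (log2 fold change -1.27 with an SE of 0.156, adjusted p = 2.02e-06). Il7r and H2-Q7, among the lower genes, and Itgae, the higher one, are described above. H2-Q6 had a log2 fold change of -0.37 (adjusted p = 0.128), Cd28 of -0.38 (adjusted p = 0.133), and Ccr9 of -0.04 (adjusted p = 0.925), and Cd24a was too low to be tested. Time since thymic exit was not measured in these cells.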
